A study of Mus musculus with 15 samples.

Results

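Cultures of primary mouse hippocampal neurons given an inhibitor of ACSS2 were compared with cultures given its solvent, both without added acetate. The comparison used the libraries that the labels mark as inhibitor with vehicle (3 libraries, inhibitor vehicle 1 to 3) and DMSO with vehicle (4 libraries, DMSO vehicle 1 to 4), which are 7 of the 15 libraries of the series, and all 24498 genes of the deposited count table. The plated neurons came from a university neuronal core and were kept in neurobasal medium with GlutaMAX and B27. After 7 days of differentiation the inhibitor was given at 20 µM for 24 h, or DMSO diluted in the medium, and the acetate vehicle that both groups received was the medium itself. The other 8 libraries had 5 mM acetate with DMSO (4 libraries) or with inhibitor (4 libraries), and they are used where the inhibitor comparison with acetate is set beside this one. The strain, the age of the animals, the compound's name and whether replicates were separate cultures are not stated in the labels, and no untreated culture without DMSO was used here.

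ACSS2 joins acetate to coenzyme A in the cytosol and nucleus and so makes acetyl-CoA, the acetyl donor of histones and the building block of fatty acids and sterols. In neurons it has been found on chromatin, where it was tied to histone acetylation at genes used in memory. ACLY makes acetyl-CoA from citrate in the same compartments, and ACSS1 is the mitochondrial relative of ACSS2. An inhibitor acts on the protein, so transcript levels do not check whether the enzyme was blocked, and the enzyme's activity was not measured here.

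Gene counts ranged from 19929931 to 27262766 per library in the 7 libraries, with a median of 24258345, so that 1 count was worth 0.0326 to 0.0463 CPM, the count relative to the TMM-scaled library size. Pan-neuronal markers were high in all 7, at 7.65 to 8.13 mean log2 CPM as the labelled cell type requires, but the cultures also held transcripts of other cells, and 2 libraries stood apart in them. Markers of microglia and macrophages (14 of 15 tested) stood at 2.67 mean log2 CPM in DMSO vehicle 1 and 5.03 to 5.11 in the rest of that group, and at -0.43 in inhibitor vehicle 2 against 4.42 and 4.73 in inhibitor vehicle 1 and 3. A non-neuronal score, the mean of the means of the astrocyte, oligodendrocyte, microglia, vessel and meninges marker lists, was 3.37 in DMSO vehicle 1, below the 4.46 to 4.71 of DMSO vehicle 2 to 4. It was 2.04 in inhibitor vehicle 2 and 4.21 and 4.51 in the others of its group, and in the 8 acetate libraries it lay between 1.94 and 2.30. Fewer cells of a type and less RNA per cell cannot be told apart in such bulk samples. Inhibitor vehicle 2 also had the largest share of counts on no gene, 47.4% against 38.9% to 39.8% in the other 6 libraries, and the largest share in its 10 most abundant genes, 8.22% against 3.99% to 5.72%. The part of these differences in the results below was not tested. Where leaving out both libraries ended the call of a named gene or moved its fold by over 1.5 times, the value without them is given. Both libraries were singled out by these marker levels, so calls in fits without them are not independent of that choice.

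**Figure D1:**
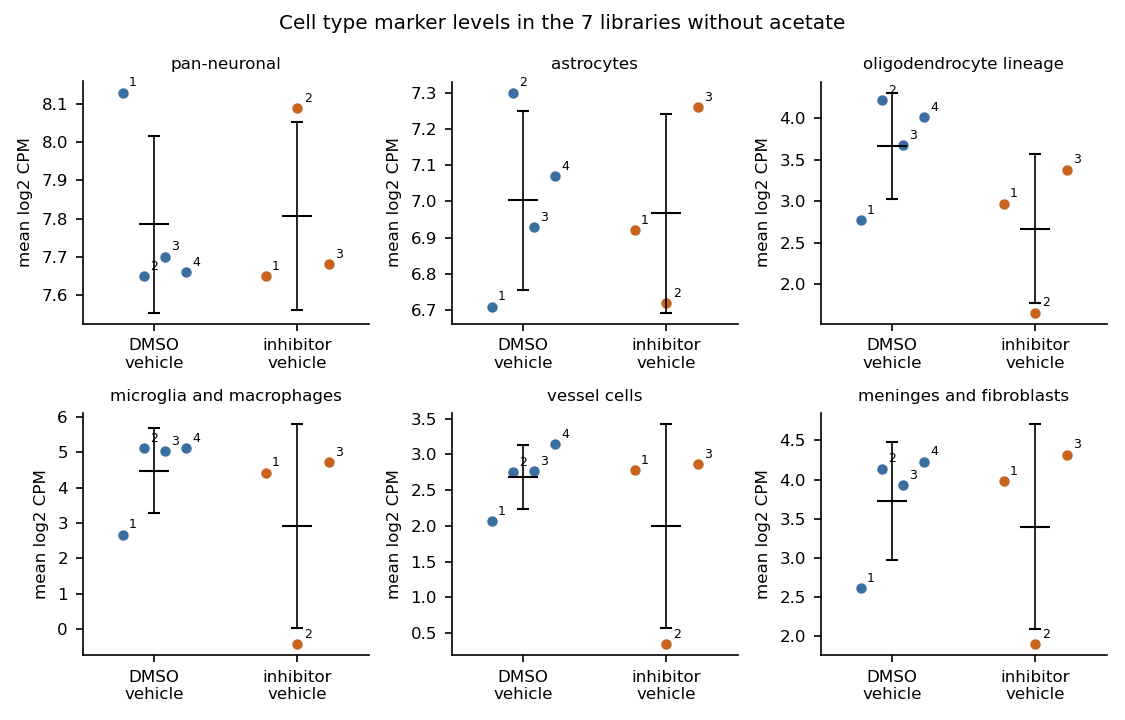
Mean log2 CPM of 6 cell type marker lists in each library without acetate, with DMSO in blue and inhibitor in orange, the replicate number beside each point, and the group mean and SD as a black bar; the vertical axes do not start at 0. DMSO vehicle 1 and inhibitor vehicle 2 have the highest pan-neuronal levels (8.13 and 8.09) and the lowest levels of microglia, vessel, oligodendrocyte and meninges markers in their groups.

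In a single edgeR quasi-likelihood fit of all 15 libraries, 15075 genes were tested. A gene was called where its adjusted p (Benjamini-Hochberg) was below 0.05, and only then is it said to have risen or fallen. With the inhibitor 523 genes rose (3.47% of those tested) and 300 fell (1.99%). Counts of raised and lowered list members given below for this fit are to be read beside these shares. The changes were small: the median absolute log2 fold of the called genes was 0.50, 32 rose and 49 fell by 2-fold or more, and in 782 of the 823 called genes the 3 inhibitor libraries did not overlap the 4 DMSO libraries. Among all tested genes 2517 were separated in this way, and 3833 had an unadjusted p under 0.05.

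These counts rest on the spread shared by the 4 groups, which were not equally uneven. The SD of the non-neuronal score was 0.637 with DMSO vehicle and 1.35 with inhibitor vehicle. With acetate this SD was 0.056 for DMSO and 0.137 for inhibitor. When the 7 libraries were fitted alone, edgeR called 0 genes in either direction, with 2332 genes at an unadjusted p under 0.05 and a smallest adjusted p of 0.229. On the same 7 libraries DESeq2 called 249 raised and 170 lowered genes, and limma voom with sample quality weights called 1 and 2. Without DMSO vehicle 1 and inhibitor vehicle 2, the fit of the remaining 13 libraries called 413 raised (2.71%) and 396 lowered genes (2.6%) among 15232 tested, of which 419 were among the 823, and all 823 kept their sign. The remaining 5 libraries fitted alone gave 268 raised and 309 lowered. Single libraries moved the counts too. They were 158 and 110 without DMSO vehicle 2, 162 and 60 without inhibitor vehicle 1, 134 and 100 without inhibitor vehicle 2, and 1000 and 630 without inhibitor vehicle 3. Leaving out inhibitor acetate 1 gave 340 and 190, and the lowered count was 189 without DMSO acetate 3 and 198 without inhibitor acetate 2. Each called gene named below kept its sign in all 29 alternative analyses, and the number of these in which it was called is given for those the text turns on. The alternatives reuse the same libraries and are not independent. Those that leave out 1 acetate library leave the folds of this comparison almost unchanged, so a kept sign there was fixed in advance.

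**Figure D2:**
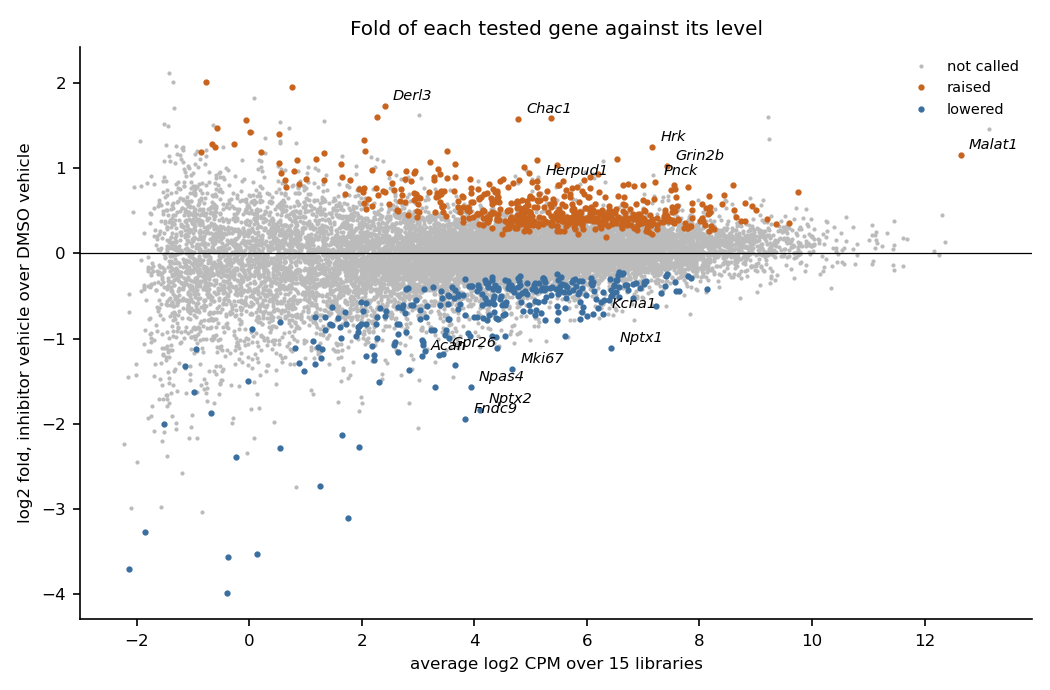
Log2 fold of inhibitor vehicle over DMSO vehicle (vertical axis) against the average log2 CPM over 15 libraries (horizontal axis) for the 15075 tested genes, with the 523 raised genes in orange, the 300 lowered in blue and 15 genes named. Most called genes lie within a log2 fold of 1 of the zero line, and the lowest labelled points are Fndc9 at -1.95 and Nptx2 at -1.84.

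The transcripts of the acetate-handling enzymes Acss2, Acly and Acss1 did not pass the test in the fit of all libraries, although Acly and Acss2 did in some of the alternatives. Acss2 (chromosome 2, 155517948 to 155585724 in mm10) had 35.7, 21.5, 22.9 and 23.0 CPM in DMSO vehicle 1 to 4 and 15.5, 18.3 and 20.5 CPM in inhibitor vehicle 1 to 3. The groups did not overlap, DMSO vehicle 1 was the highest, and the log2 fold was -0.51 (SE 0.16), at an adjusted p of 0.0716 by edgeR. It was -0.32 (adjusted p = 0.152) without DMSO vehicle 1 and inhibitor vehicle 2, and Acss2 passed in 3 of the 29 alternatives, among them the fit without inhibitor vehicle 3 (adjusted p = 0.0494) and a fit adjusted for the non-neuronal score (adjusted p = 0.017). Acly (chromosome 11, 100476353 to 100528000) had 244 CPM in DMSO vehicle 1 and 117 to 128 CPM in the other DMSO libraries, against 74.0, 126 and 97.6 CPM with inhibitor. Its groups overlapped, and its log2 fold was -0.61 (SE 0.24, adjusted p = 0.122). Without DMSO vehicle 1 alone Acly had -0.29 (adjusted p = 0.253). It was called lowered without both libraries that stood apart (-0.49, adjusted p = 0.0354), in the other 5 libraries fitted alone (adjusted p = 0.0289) and with the score (adjusted p = 0.00447). For Acss1 (chromosome 2, 150618105 to 150668500) the level was 22.8 ± 1.5 CPM (SD, n = 4) and 22.6 ± 2.5 CPM (n = 3), with a log2 fold of -0.01 (SE 0.19). Over the 19 tested genes of acetate and acetyl-CoA supply, 0 rose and 0 fell, with a median log2 fold of -0.12 beside -0.003 over all tested genes. This median was -0.025 without DMSO vehicle 1, -0.028 without inhibitor vehicle 1 and -0.21 without inhibitor vehicle 2. Sterol synthesis and uptake genes, which draw on acetyl-CoA, had a median of -0.31, with 24 of 25 folds below 0 and 0 called. That median rested on DMSO vehicle 1: without this library it was -0.00086, and without both libraries that stood apart it was -0.22, with 1 member lowered. It was -0.13 and -0.58 without inhibitor vehicle 1 and 2. Fatty acid synthesis genes, which also draw on acetyl-CoA, had a median of -0.04, with 9 of 20 folds above 0. In that list 1 gene rose, Lpin1, a phosphatase of lipid synthesis (0.37, SE 0.10, adjusted p = 0.0407), which had 0.23 (adjusted p = 0.162) without both libraries. When the non-neuronal score entered the 15-library fit as a covariate, 16 of the 25 sterol genes and 5 of the 19 supply genes were lowered. Of the 20 fatty acid genes 2 were raised and 2 lowered. In that fit 1216 genes were raised and 1066 lowered among all 15075 tested. Within groups the score varied mainly through DMSO vehicle 1 and inhibitor vehicle 2, so this adjustment rests largely on those libraries. DMSO vehicle 1 also had the highest sterol gene level of the controls, 6.87 mean log2 CPM against 5.81 to 6.06.

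Enzymes that add or remove acetyl groups on histones were counted as separate lists. Of 15 acetyltransferase genes 2 rose and 0 fell, where 3.47% of all tested genes rose and 1.99% fell. Crebbp, the CREB-binding protein, a coactivator that acetylates histone H3, had 35.2 to 40.3 CPM in the 4 DMSO libraries and 48.1, 80.3 and 49.2 CPM with inhibitor, a log2 fold of 0.67 (SE 0.18, adjusted p = 0.043). Inhibitor vehicle 2 was the highest, and without it Crebbp had 0.39 (adjusted p = 0.153). Kat8, which acetylates histone H4, rose by 0.23 (SE 0.06, adjusted p = 0.0497), from 20.6 ± 0.7 to 24.0 ± 0.5 CPM. Neither was called without the 2 libraries that stood apart (0.43 at an adjusted p of 0.0923 and 0.24 at 0.103), Crebbp passed in 15 of the 29 alternatives and Kat8 in 3. Of 18 deacetylase and sirtuin genes, Hdac11 rose by 0.33 (SE 0.09) and Hdac9 fell by 0.60 (SE 0.11). Hdac11 was called in 6 alternatives and had 0.29 (adjusted p = 0.0861) without the 2 libraries. Hdac9, a class IIa deacetylase that binds transcription factors of muscle and neurons, had 27.1 to 30.7 CPM with DMSO and 19.6, 16.0 and 21.2 CPM with inhibitor, was called in 26 alternatives, and also fell with acetate present (-0.63, adjusted p = 0.00465).

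The 10 genes with the smallest p-values came from no single list. Pnck, a calcium/calmodulin-dependent protein kinase (chromosome X, 73655994 to 73660117), stood at 88.0, 89.5, 96.2 and 105 CPM with DMSO and at 180, 175 and 154 CPM with inhibitor. All 3 inhibitor libraries were above all 4 controls, and the log2 fold was 0.84 (SE 0.09, adjusted p = 0.00276). Car11, a carbonic anhydrase-related protein of brain, rose by 0.80 (SE 0.11), from 63.8 to 76.7 CPM to 140, 134 and 105 CPM. Kctd2, an adaptor of a ubiquitin ligase, rose by 0.78 (SE 0.11), from 39.9 ± 5.9 to 68.4 ± 7.8 CPM. Falls of this kind were those of Gpr26, an orphan receptor of brain, by 1.18 (SE 0.16), of Pdzd2, a protein with PDZ domains, by 1.07 (SE 0.15), and of Sel1l3 by 0.66 (SE 0.08). Gpr26 had 9.61 to 16.3 CPM with DMSO and 4.43, 6.34 and 5.90 CPM with inhibitor, with no overlap. Fras1, an extracellular matrix protein of basement membranes, fell by 0.77 (SE 0.11). Pisd-ps3, with a log2 fold of 0.48 (SE 0.07), is a pseudogene that may share reads with Pisd, and its count is uncertain. Pnck was called in 28 alternatives, Car11, Gpr26 and Pdzd2 in 27, and Kctd2, Sel1l3 and Fras1 in 26, each missed by the 7-library edgeR fit.

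Nptx2, Fndc9 and Acan were among the genes named for their low folds, a rule that took only genes whose groups did not overlap. Nptx2, neuronal pentraxin 2, is a secreted protein that gathers AMPA receptors at excitatory synapses on interneurons and is induced by activity (chromosome 5, 144545902 to 144557478). Its level was 25.7, 37.7, 51.3 and 48.8 CPM with DMSO and 13.6, 5.93 and 14.7 CPM with inhibitor, so every inhibitor library was below every control. The log2 fold was -1.84 (SE 0.28, adjusted p = 0.0064), and Nptx2 was called in 27 of 29 alternatives. Its relative Nptx1, chosen after its value was seen, went from 124, 74.4, 90.4 and 84.8 CPM to 32.9, 60.02 and 37.0 CPM, a log2 fold of -1.11 (SE 0.19, adjusted p = 0.00918), and was called in 28. Acan, aggrecan, the core protein of perineuronal nets around interneurons, fell from 10.1, 14.8, 12.5 and 12.5 CPM to 5.996, 3.74 and 6.47 CPM, by 1.21 (SE 0.17). Among the genes named for their low folds, the lowest was that of Fndc9, a membrane protein with a fibronectin domain (chromosome 11, 46235531 to 46239872). Fndc9 had 26.5, 38.9, 48.0 and 45.5 CPM with DMSO and 13.2, 5.97 and 11.7 CPM with inhibitor, a log2 fold of -1.95 (SE 0.28, adjusted p = 0.00559).

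Immediate early genes are switched on within minutes to hours of synaptic activity. Of 30 tested, 0 rose and 4 fell (Nptx2, Egr4, Npas4 and Ier5), with a median log2 fold of -0.40. Npas4, a transcription factor induced by calcium entry, had 55.2, 17.8, 27.4 and 21.6 CPM with DMSO and 15.3, 4.56 and 10.9 CPM with inhibitor (log2 fold -1.57, SE 0.39, adjusted p = 0.0332). DMSO vehicle 1 was the highest control, and Npas4 had -1.12 (adjusted p = 0.0502) without it, -1.22 (adjusted p = 0.0768) without inhibitor vehicle 2, and -0.77 (adjusted p = 0.0328) without DMSO vehicle 1 and inhibitor vehicle 2. Egr4, a zinc finger factor, had 25.9 CPM in DMSO vehicle 1, 6.13 to 11.5 CPM in the other controls and 5.39, 3.05 and 4.88 CPM with inhibitor (-1.57, SE 0.36, adjusted p = 0.027); it had -1.01 without DMSO vehicle 1, -0.80 (adjusted p = 0.0231) without both libraries that stood apart, and adjusted p-values of 0.0584 and 0.0775 without inhibitor vehicle 1 and 2. Ier5 fell by 0.48 (SE 0.11), from 43.4 ± 1.6 to 31.2 ± 4.2 CPM, and was called in 22 alternatives. Most members did not pass. Fos had 18.9 ± 4.0 and 18.7 ± 8.2 CPM with a log2 fold of -0.01 (SE 0.28, adjusted p = 0.985), Arc had -0.98 (SE 0.33, adjusted p = 0.0859), and Bdnf had -0.41 (SE 0.15, adjusted p = 0.101). Without the 2 libraries that stood apart the list had 8 lowered and 1 raised member, at a median of -0.13, with Arc among those lowered (-0.56, SE 0.15, adjusted p = 0.04). The lowered count was 2 without inhibitor vehicle 1, 1 without inhibitor vehicle 2 and 6 without inhibitor vehicle 3.

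**Figure D3:**
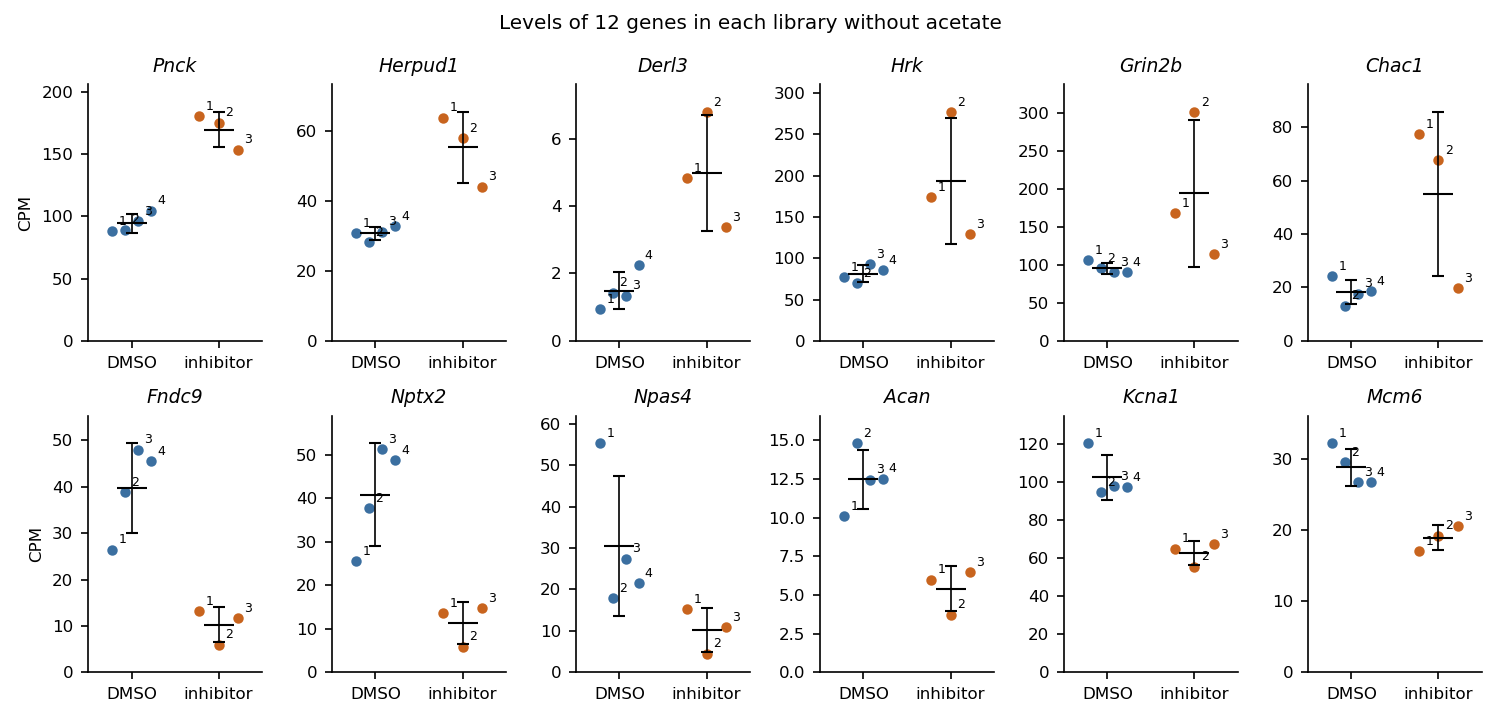
CPM of 12 genes in each library without acetate, with DMSO in blue and inhibitor in orange, replicate numbers beside the points, the group mean and SD as a black bar, and vertical axes from 0. In 11 of the 12 genes the inhibitor libraries do not overlap the controls, and in Chac1 inhibitor vehicle 3 (19.8 CPM) lies among the DMSO libraries. Lack of overlap was a condition for naming genes by their folds, so it is no separate result for those, and 2517 of all 15075 tested genes had it.

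Ionotropic and metabotropic glutamate receptors carry excitatory transmission. Grin2b, the NMDA receptor subunit that predominates early in development, had 90.4 to 106 CPM with DMSO and 168, 302 and 114 CPM with inhibitor, a log2 fold of 1.02 (SE 0.24, adjusted p = 0.0286). Inhibitor vehicle 2 was the highest of its group. Without it Grin2b had 0.56 (adjusted p = 0.0976), 1.11 (adjusted p = 0.0546) without inhibitor vehicle 1, and without DMSO vehicle 2 and 3 adjusted p-values of 0.0699 and 0.0538. Without both inhibitor vehicle 2 and DMSO vehicle 1 it had 0.61 (SE 0.17, adjusted p = 0.046). Grm5, a metabotropic receptor, rose by 0.81 (SE 0.20), and Gria2, the AMPA receptor subunit that keeps out calcium, by 0.58 (SE 0.15), from 224 ± 17 to 336 ± 92 CPM. Both calls rested on single libraries. Without inhibitor vehicle 2 Grm5 had 0.45 (adjusted p = 0.113) and Gria2 0.33 (adjusted p = 0.117), and both calls were also lost without DMSO vehicle 2, 3 or 4, each left out alone. Without both libraries that stood apart Grm5 had 0.59 (adjusted p = 0.00994) and Gria2 0.38 (adjusted p = 0.0575). Grin1, the obligatory NMDA subunit, had a log2 fold of -0.15 (SE 0.11, adjusted p = 0.422).

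Among 36 voltage-gated ion channel genes 3 sodium channel genes rose and 1 potassium channel gene fell (median 0.07). Scn3a, an alpha subunit most abundant in the embryonic and newborn brain, had 14.7 to 19.3 CPM with DMSO and 21.8, 43.5 and 32.4 CPM with inhibitor (0.94, SE 0.21, adjusted p = 0.0237). Without inhibitor vehicle 2 it had 0.68 (adjusted p = 0.0823), and the raised count of the list was 1. Scn3b, a beta subunit, rose by 0.60 (SE 0.12), from 79.0 to 97.9 CPM to 119, 158 and 107 CPM. The third, Scn2a1, had 0.47 (SE 0.13, adjusted p = 0.0497) and passed in 8 of the 29 alternatives; it had 0.29 (adjusted p = 0.178) without inhibitor vehicle 2. Kcna1, a low-threshold potassium channel of axons, was lower in each inhibitor library than in each control, with 120, 94.7, 97.6 and 97.2 CPM with DMSO and 64.9, 55.5 and 67.2 CPM with inhibitor, a log2 fold of -0.71 (SE 0.10, adjusted p = 0.00563). With the 31 genes of synaptic vesicles and release the count was 0 raised and 2 lowered. Vamp1, a vesicle SNARE, fell by 0.76 (SE 0.13), from 23.4 to 34.0 CPM to 16.3, 17.3 and 15.2 CPM, and was called in 27 alternatives. Gad2, which makes GABA, fell by 0.42 (SE 0.11, adjusted p = 0.0464), with overlapping groups and a call in 8 alternatives, and had -0.38 (adjusted p = 0.0541) without the 2 libraries that stood apart. Of 14 GABA receptor genes, Gabrb2 rose by 0.58 (SE 0.12; 0.44 at an adjusted p of 0.0605 without inhibitor vehicle 2), and of 27 postsynaptic density genes 0 were called. Beside these, the inhibitory neuron markers had 2 of 12 lowered (Gad2 and Reln), at 4.56 to 4.98 mean log2 CPM in DMSO and 4.38 to 4.77 with inhibitor, and the excitatory neuron markers 1 of 12 raised (Nrgn). Both counts were 0 without DMSO vehicle 2, 3 or 4 or inhibitor vehicle 1 or 2, each left out alone.

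Some genes of the integrated stress response rose. In this response eIF2alpha kinases slow translation, and the factor ATF4, made in spite of that, switches on amino acid synthesis, amino acid transport and, when prolonged, death genes. Of 29 genes of the list 7 rose and 0 fell, with 24 folds above 0 and a median of 0.27. Pck2, the mitochondrial form of phosphoenolpyruvate carboxykinase, had 25.4, 21.9, 25.4 and 28.5 CPM with DMSO and 44.9, 53.6 and 31.6 CPM with inhibitor, without overlap (0.78, SE 0.13, adjusted p = 0.00817). Chac1, which breaks down glutathione, had 24.3, 13.2, 17.7 and 18.6 CPM with DMSO and 77.3, 67.5 and 19.8 CPM with inhibitor, a log2 fold of 1.57 (SE 0.31, adjusted p = 0.0172). Inhibitor vehicle 3 thus lay among the controls. The same held for Atf4, at 346 to 379 CPM with DMSO and 585, 622 and 367 CPM with inhibitor (0.51, SE 0.13, adjusted p = 0.0391), and for Ddit3, a pro-apoptotic factor also called CHOP, at 35.6 to 78.9 CPM and 148, 123 and 78.5 CPM (0.90, SE 0.23, adjusted p = 0.0387). Asns, Psat1 and Phgdh, enzymes of amino acid synthesis in the same list, had folds of 0.13, -0.29 and -0.07 and did not pass. The number raised was 1 without inhibitor vehicle 1, 2 without inhibitor vehicle 2, 13 without inhibitor vehicle 3, 2 without DMSO vehicle 2, 4 without DMSO vehicle 1 or 3, and 4 without the 2 libraries that stood apart. It was also 2 without any 1 of DMSO acetate 1, 2 or 3 or of inhibitor acetate 1 or 2, and 3 without DMSO acetate 4 or inhibitor acetate 3. Pck2 passed in 26 alternatives, Chac1 in 25 (1.24 at an adjusted p of 0.0619 without inhibitor vehicle 1), Ddit3 in 12 and Atf4 in 9, with Atf4 at 0.37 (adjusted p = 0.104) without the 2 libraries that stood apart. In mean log2 CPM the list had 5.53, 5.8, 5.98 and 5.98 in DMSO vehicle 1 to 4. It had 6.33, 6.06 and 5.96 in inhibitor vehicle 1 to 3, so the groups overlapped. With acetate present the inhibitor gave Chac1 a log2 fold of -0.06 and Atf4 of -0.08, while over the list 2 members rose and 0 fell, at a median of 0.131.

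Genes of protein folding and disposal in the endoplasmic reticulum were counted next. Of 20 chaperone and degradation genes 2 rose and 0 fell (median 0.10), where 3.47% of all tested genes rose and 1.99% fell. Herpud1, which helps to clear misfolded proteins from the endoplasmic reticulum (chromosome 8, 94386438 to 94395377), had 30.7, 28.2, 31.2 and 32.8 CPM with DMSO and 63.8, 57.9 and 44.1 CPM with inhibitor, a log2 fold of 0.85 (SE 0.11, adjusted p = 0.00514). Xbp1, a transcription factor of the unfolded protein response, rose by 0.28 (SE 0.08, adjusted p = 0.0445), passed in 5 alternatives and had 0.30 (adjusted p = 0.0567) without the 2 libraries. Outside the list, Derl3, a derlin of the same disposal pathway (chromosome 10, 75893413 to 75895941), had the highest fold of the named genes. It had 0.94, 1.43, 1.34 and 2.26 CPM with DMSO and 4.82, 6.79 and 3.37 CPM with inhibitor, all 3 above all 4 (1.73, SE 0.25, adjusted p = 0.00548). Derl3 and Herpud1 were each called in 27 alternatives. Of genes that promote apoptosis, Hrk and Bbc3 were called, and such genes were not counted as a list. Hrk, a BH3-only protein of dying neurons (chromosome 5, 118164648 to 118189478), had 77.3, 69.8, 92.6 and 86.0 CPM with DMSO and 174, 277 and 129 CPM with inhibitor (1.25, SE 0.18, adjusted p = 0.00559). Bbc3, the BH3-only protein PUMA, was the 1 called gene of 20 p53 targets, with 39.6 to 68.4 CPM and 132, 89.3 and 82.9 CPM (0.93, SE 0.18, adjusted p = 0.0155); it had 0.69 (adjusted p = 0.0574) without inhibitor vehicle 1.

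Promoters of some of these genes are shown, since stress responses are known to act through short elements in front of their target genes. Every window shown held a match, so the windows do not stand for the raised genes as a group. Hrk and Derl3 are outside the lists counted above, and whether they are targets was not tested. Each window runs from 250 bases before to 50 after the start that RefSeq gives on GRCm38.p6, the assembly of mm10, on the gene's strand, 5′ to 3′. Capitals mark matches, on either strand, to an ATF4-type element (TGATGNAAN), the endoplasmic reticulum stress element ERSE (CCAAT, 9 bases of any kind, then CCACG) and ERSE-II (ATTGG, 1 base of any kind, then CCACG). Over 32851 promoter windows of the same length, 3.95% held the first, 0.119% the second and 0.0365% the third.
Chac1, chr2:119350992-119351291, plus strand: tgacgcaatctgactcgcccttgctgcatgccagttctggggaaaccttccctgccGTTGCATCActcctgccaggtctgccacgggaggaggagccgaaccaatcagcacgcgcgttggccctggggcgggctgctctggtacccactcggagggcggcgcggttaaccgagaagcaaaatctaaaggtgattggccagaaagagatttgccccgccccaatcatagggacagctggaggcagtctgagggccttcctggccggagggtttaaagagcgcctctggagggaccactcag
Pck2, chr14:55540016-55540315, plus strand: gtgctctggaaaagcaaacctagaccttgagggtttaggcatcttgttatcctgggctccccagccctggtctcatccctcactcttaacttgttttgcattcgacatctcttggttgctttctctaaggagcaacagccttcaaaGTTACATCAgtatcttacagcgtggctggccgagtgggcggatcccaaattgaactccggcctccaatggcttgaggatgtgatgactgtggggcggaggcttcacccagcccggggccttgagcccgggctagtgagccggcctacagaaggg
Hrk, chr5:118169514-118169813, plus strand: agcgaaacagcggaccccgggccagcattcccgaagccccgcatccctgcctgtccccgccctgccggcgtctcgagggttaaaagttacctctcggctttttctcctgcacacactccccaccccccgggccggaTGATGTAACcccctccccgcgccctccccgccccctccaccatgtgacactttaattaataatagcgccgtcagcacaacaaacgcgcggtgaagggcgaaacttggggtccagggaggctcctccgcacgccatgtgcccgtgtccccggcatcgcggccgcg
Herpud1, chr8:94386179-94386478, plus strand: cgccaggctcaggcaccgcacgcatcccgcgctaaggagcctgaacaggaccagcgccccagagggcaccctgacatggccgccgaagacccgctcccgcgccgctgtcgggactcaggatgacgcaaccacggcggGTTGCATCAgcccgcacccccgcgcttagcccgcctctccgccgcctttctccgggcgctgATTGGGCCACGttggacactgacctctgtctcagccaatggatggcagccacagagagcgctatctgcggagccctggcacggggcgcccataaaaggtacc
Derl3, chr10:75893148-75893447, plus strand: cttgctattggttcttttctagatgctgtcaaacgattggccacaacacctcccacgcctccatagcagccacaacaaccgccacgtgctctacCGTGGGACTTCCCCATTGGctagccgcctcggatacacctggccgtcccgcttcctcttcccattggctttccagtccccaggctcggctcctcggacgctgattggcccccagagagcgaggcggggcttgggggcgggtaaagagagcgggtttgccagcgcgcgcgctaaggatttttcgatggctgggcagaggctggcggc

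The matches were an ATF4-type element 194 bases before the start in Chac1, 104 in Pck2, 114 in Hrk and 113 in Herpud1, an ERSE-II 52 bases before the start in Herpud1, and an ERSE 156 bases before it in Derl3. Of the 29 stress response genes, 25 had a window and 8 of these (32%) held the ATF4-type element, beside 2.67% of the 11447 tested genes with a window; of the 7 raised genes 6 had a window, and 2 of them, Chac1 and Pck2, held it. Of the 20 chaperone and degradation genes 17 had a window. ERSE was in 8 of these (47.1%), among them Hspa5, Calr and Canx, beside 0.166% of tested genes with a window, and it was in 0 of the 2 raised members. ERSE-II was in 2 of the 17 (Dnajb11 and Herpud1). A match is a run of letters and not a measured binding site, and no binding was measured here.

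Several proliferation genes fell with the inhibitor. Neurons do not divide, and such cultures can hold dividing glia and progenitors. Of 25 genes of the cell cycle and DNA replication 0 rose and 6 fell, 24 of 25 folds were below 0, and the median was -0.71. Mcm6, a subunit of the replicative helicase (chromosome 1, 128331590 to 128359664), had 32.2, 29.6, 26.7 and 26.7 CPM with DMSO and 17.0, 19.2 and 20.6 CPM with inhibitor, without overlap (-0.60, SE 0.10, adjusted p = 0.00817). Pcna, the sliding clamp of DNA polymerase, had 37.7 to 52.7 CPM with DMSO and 22.5, 27.6 and 30.5 CPM with inhibitor (-0.67, SE 0.13, adjusted p = 0.0155). Mcm2 fell by 0.71 (SE 0.14), and Aurkb, a mitotic kinase, by 1.19 (SE 0.26). Without inhibitor vehicle 1 these 3 had adjusted p-values of 0.0565, 0.0574 and 0.0747, and Aurkb had 0.0528 without inhibitor vehicle 2. Mki67, the Ki-67 proliferation antigen, had 64.3 CPM in DMSO vehicle 1, 18.5 to 29.7 CPM in the other controls and 10.4, 18.0 and 11.2 CPM with inhibitor (-1.36, SE 0.38, adjusted p = 0.0487), and it had -0.85 (adjusted p = 0.0769) without DMSO vehicle 1. Leaving out DMSO vehicle 2 or any 1 inhibitor vehicle library also ended its call, with adjusted p-values of 0.0605 to 0.153. DMSO vehicle 1 had the highest level of this list, 5.40 mean log2 CPM against 4.39 to 4.54 in the other controls, and the inhibitor libraries had 3.70, 4.38 and 4.0. Without DMSO vehicle 1 and inhibitor vehicle 2, 12 members fell and 0 rose, with Mki67 at -1.13 (SE 0.25, adjusted p = 0.015), Cdk1 at -0.77 (SE 0.15) and Aurkb at -0.85 (SE 0.15). Without inhibitor vehicle 1 only 1 member fell, and without inhibitor vehicle 2 there were 4. Kif20a, Kif23, Pif1 and Melk, named by their folds and also active in division, fell by 1.31, 1.37, 1.20 and 1.19, and were called in 16, 12, 19 and 14 alternatives. Without DMSO vehicle 1 alone Kif20a had -0.79 (adjusted p = 0.0454), Kif23 -0.87 (adjusted p = 0.0594) and Melk -0.75 (adjusted p = 0.0405). Pif1 had -0.74 (adjusted p = 0.0558) without both libraries that stood apart. Aurkb had -0.79 (adjusted p = 0.0101) without DMSO vehicle 1. Neural progenitor markers, whose cells can divide, had 0 of 10 called, at 6.33 to 6.54 mean log2 CPM with DMSO and 6.24, 5.90 and 6.47 with inhibitor; astrocyte markers had 0 of 14 called, at 6.71 to 7.30 and 6.92, 6.72 and 7.26. Their part in the lower proliferation genes was not tested.

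The promoter of Mcm6 is shown as a window that held matches, and it does not stand for the group. Capitals mark matches to an E2F-type element (TTTNGCGC, either strand), which was present in 1.38% of all windows. E2F factors drive replication genes at the start of S phase.
Mcm6, chr1:128359656-128359955, minus strand: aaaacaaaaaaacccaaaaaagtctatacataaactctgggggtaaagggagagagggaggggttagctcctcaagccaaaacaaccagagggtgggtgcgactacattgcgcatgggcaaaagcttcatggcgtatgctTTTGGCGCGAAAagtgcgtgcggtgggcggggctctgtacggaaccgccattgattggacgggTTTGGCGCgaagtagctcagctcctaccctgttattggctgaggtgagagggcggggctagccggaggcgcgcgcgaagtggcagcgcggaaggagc

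The 3 matches began 110, 106 and 47 bases before the start, and the first and second overlap. Of 20 genes of the list with a window 5 (25%) held the element, beside 2.77% of all tested genes with a window; of the 6 lowered members 5 had a window and 2 of them, Mcm5 and Mcm6, held it.

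**Figure D4:**
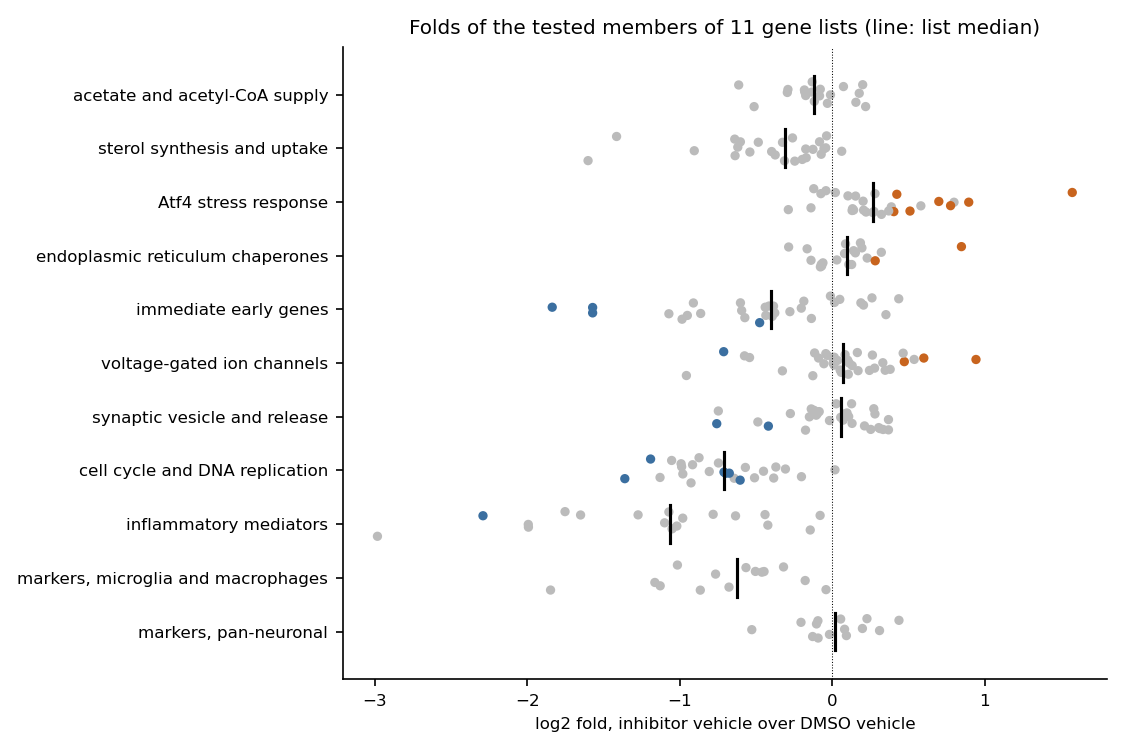
Log2 fold of inhibitor vehicle over DMSO vehicle for each tested member of 11 gene lists, with raised members in orange, lowered in blue, the rest in grey and the list median as a black line; vertical scatter within a list has no meaning. Stress response members lie mostly right of 0, with a median of 0.27, and cell cycle and inflammatory members left of it, with medians of -0.71 and -1.06.

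Inflammatory mediators were lowest in inhibitor vehicle 2 and, among the controls, in DMSO vehicle 1, at -0.80 and 0.82 mean log2 CPM, against 1.64 and 1.76 in the other inhibitor libraries and 2.46 to 2.95 in the other controls. Of 18 tested, all 18 folds were below 0 and the median was -1.06, but only Ccl2, the monocyte-attracting chemokine, was called (-2.29, SE 0.57, adjusted p = 0.0339). Its level was 1.24 CPM in DMSO vehicle 1 and 4.10 to 6.13 CPM in the other controls, against 1.09, 0.09 and 1.25 CPM with inhibitor. Ccl2 was not called without DMSO vehicle 2 or 3 or inhibitor vehicle 1 or 2, at adjusted p-values of 0.0578 to 0.0867, while without DMSO vehicle 1 there were 5 lowered members. Tnf, the tumour necrosis factor, chosen after its value was seen, had 1.62 CPM in DMSO vehicle 1, 12.6 to 18.0 CPM in the other controls, and 4.39, 0.05 and 5.75 CPM (-1.75, SE 0.78, adjusted p = 0.177). Without the 2 libraries that stood apart 11 members fell and 0 rose, at a median of -0.88. There Tnf had -1.55 (SE 0.21, adjusted p = 0.00053), Ccl2 -2.08 (SE 0.25), Il1b -1.82 (SE 0.46) and Nfkbia, a target and brake of NF-kB, -0.51 (SE 0.10). The background of lowered genes in that fit was the 2.6% given above. Of 22 interferon-stimulated genes 2 fell (Cxcl10 and Isg15). The lowered count was 0 without DMSO vehicle 2, inhibitor vehicle 1 or inhibitor vehicle 2, each left out alone, 4 without DMSO vehicle 1, and 6 without the 2 libraries that stood apart. Gpr84, a receptor of activated microglia, also chosen after its value was seen, had 1.92 CPM in DMSO vehicle 1, 12.7 to 15.2 CPM in the other controls and 1.26, 0 and 2.46 CPM (-3.11, SE 0.77, adjusted p = 0.0334), with adjusted p-values of 0.051 to 0.102 when any 1 library other than DMSO vehicle 1 or inhibitor vehicle 3 was left out of the 7. The folds of microglia markers were below 0 as well, in all 14, but 0 were called, the median was -0.62, and Cx3cr1 and C1qa had -1.85 (SE 0.69) and -1.01 (SE 0.79). Outside the 2 libraries the microglia marker levels were 5.03 to 5.11 with DMSO and 4.42 and 4.73 with inhibitor, where 2 of the markers were called lowered. Their part in the inflammatory result was not tested. Oligodendrocyte lineage markers had 0 of 13 called, and 7 lowered without the 2 libraries, among them Sox10 (-1.26, SE 0.28), Gpr17 (-1.86, SE 0.24) and Myrf (-1.35, SE 0.22). The 2 libraries were set apart by such markers and were the lowest of their groups in them and in the inflammatory list. Leaving them out narrows the spread of these genes within groups. The marker and inflammatory counts without them are therefore no separate support.

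Further genes were named for their folds. Klf7 and Klf9, zinc finger factors of neurite growth and of hormone response, rose by 1.10 (SE 0.20) and 1.04 (SE 0.22); Klf7 had 37.7 to 53.6 CPM with DMSO and 74.0, 142 and 76.8 CPM with inhibitor. Without inhibitor vehicle 2 Klf7 had 0.73 and kept its call, and Klf9 had 0.65 (adjusted p = 0.0605). Klf9 also lost its call without DMSO vehicle 2 (adjusted p = 0.058), and it had 0.64 (adjusted p = 0.034) without the 2 libraries that stood apart. Rasl10a, a Ras-like GTPase, rose from 1.66 to 2.69 CPM to 4.35, 5.65 and 5.64 CPM, by 1.33 (SE 0.19, adjusted p = 0.00548). Dbx2, a homeobox factor of neural progenitors, had the second highest named fold, 1.60 (SE 0.41), but inhibitor vehicle 2 stood at 13.4 CPM against 3.22 and 4.12 CPM in the other inhibitor libraries and 1.84 to 2.97 CPM with DMSO, and without that library it had 0.69 (adjusted p = 0.201); it was not called without DMSO vehicle 2, 3 or 4 either, each left out alone, and it had 0.84 (adjusted p = 0.103) without the 2 libraries that stood apart. Malat1, a long RNA kept in the nucleus, was uneven among the controls, at 2566, 2253, 4949 and 5136 CPM, and stood at 6938, 10590 and 7416 CPM with inhibitor (1.16, SE 0.28, adjusted p = 0.0329). Leaving out DMSO vehicle 1, DMSO vehicle 2, inhibitor vehicle 1 or inhibitor vehicle 2 gave it adjusted p-values of 0.0558, 0.0784, 0.0578 and 0.0939, and without the 2 libraries that stood apart it had 0.80 (adjusted p = 0.081). Lipg, an endothelial lipase, had 16.0 CPM in DMSO vehicle 1 and 3.85 to 4.98 CPM in the other controls, against 2.56, 1.73 and 3.37 CPM with inhibitor (-1.51, SE 0.41, adjusted p = 0.0469). Its fold was -0.79 without DMSO vehicle 1, -1.51 at an adjusted p of 0.124 without inhibitor vehicle 1 and -1.30 at 0.122 without inhibitor vehicle 2, and -0.58 (adjusted p = 0.0637) without the pair that stood apart. Ngfr, the p75 neurotrophin receptor, fell from 13.2 to 19.5 CPM to 8.65, 6.88 and 9.87 CPM, by 0.90 (SE 0.15). Genes of the respiratory chain (36) and of cytosolic ribosomal proteins (36) had 0 calls, with medians of 0.09 and 0.14; ribosomal protein genes have many processed pseudogenes and their counts are uncertain.

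The same inhibitor in the presence of acetate was measured in 8 other libraries, 4 with each treatment, none of them shared with the comparison above, though all 15 shared the estimate of spread. There 356 genes rose (2.36%) and 515 fell (3.42%). Genes raised in both numbered 79, which are 15.1% of those raised without acetate and 22.2% of those raised with it. Genes lowered in both numbered 46 (15.3% and 8.93%). A single gene, Sel1l3, fell without acetate (-0.66) and rose with it (0.29, SE 0.07, adjusted p = 0.0331). Across the 15075 genes the 2 folds correlated at 0.18 (Pearson) and 0.14 (Spearman), a description across genes that are not independent replicates. Among genes called in both, Fndc9 had -1.95 without and -2.16 with acetate, Npas4 -1.57 and -1.73, Egr4 -1.57 and -2.36, Derl3 1.73 and 1.54, and Hrk 1.25 and 0.85. Ngfr (-0.90 and -0.89), Kctd2 (0.78 and 0.76) and Bbc3 (0.93 and 0.71) were close in both. Elk1, a factor of serum response elements, had 0.86 and 1.46, Slc44a5, a choline transporter-like protein, 0.88 and 1.52, Il34, a cytokine of neurons that acts on microglia, 0.97 and 1.37, and Htr1a, a serotonin receptor, 0.99 and 1.03; these last 4 were chosen because both comparisons called them. Htr1a had 0.56 (adjusted p = 0.0635) and Il34 0.84 (adjusted p = 0.056) without acetate when inhibitor vehicle 2 was left out.

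Genes called without acetate and not with it included Nptx1 (-1.11 without, 0.39 with), Nptx2 (-1.84 and -0.66), Car11 (0.80 and 0.07), Grin2b (1.02 and -0.06) and Chac1 (1.57 and -0.06). A call in 1 arm alone does not show a difference, and the direct test of the difference of the inhibitor effects, without minus with acetate, called 1 gene raised (0.00663%) and 2 lowered (0.0133%), with 3113 at an unadjusted p under 0.05. These were Sel1l3, with a difference of -0.95 (SE 0.11, adjusted p = 0.00345), Rasl11b, with -1.15 (SE 0.14, adjusted p = 0.00345), and Spred3, with 1.19 (SE 0.17, adjusted p = 0.0151). Only Sel1l3 was called without acetate: it had 44.5, 49.0, 50.2 and 46.8 CPM with DMSO and 29.4, 28.5 and 32.5 CPM with inhibitor. Rasl11b, a Ras-like GTPase, had 28.0 ± 1.9 and 26.2 ± 2.8 CPM without acetate and 15.9 ± 1.9 and 33.2 ± 1.2 CPM with it. Spred3, a brake on Ras signaling, had 114 ± 9.5 and 109 ± 22 CPM without acetate, and 107 ± 9.9 and 44.7 ± 4.4 CPM with it. Without DMSO vehicle 1 and inhibitor vehicle 2 the difference test called 417 raised and 237 lowered genes, and without inhibitor vehicle 3 it called 745 and 260. It called 0 raised genes without DMSO vehicle 2, 3 or 4, DMSO acetate 2, or inhibitor acetate 1 or 3, each left out alone, and Spred3 reached an adjusted p of 0.0619 without DMSO vehicle 3. Sel1l3 and Rasl11b had adjusted p-values of at most 0.017 whichever single library was left out. Respiratory chain and ribosomal protein genes, uncalled here, had 15 and 21 of 36 lowered with acetate present.

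**Figure D5:**
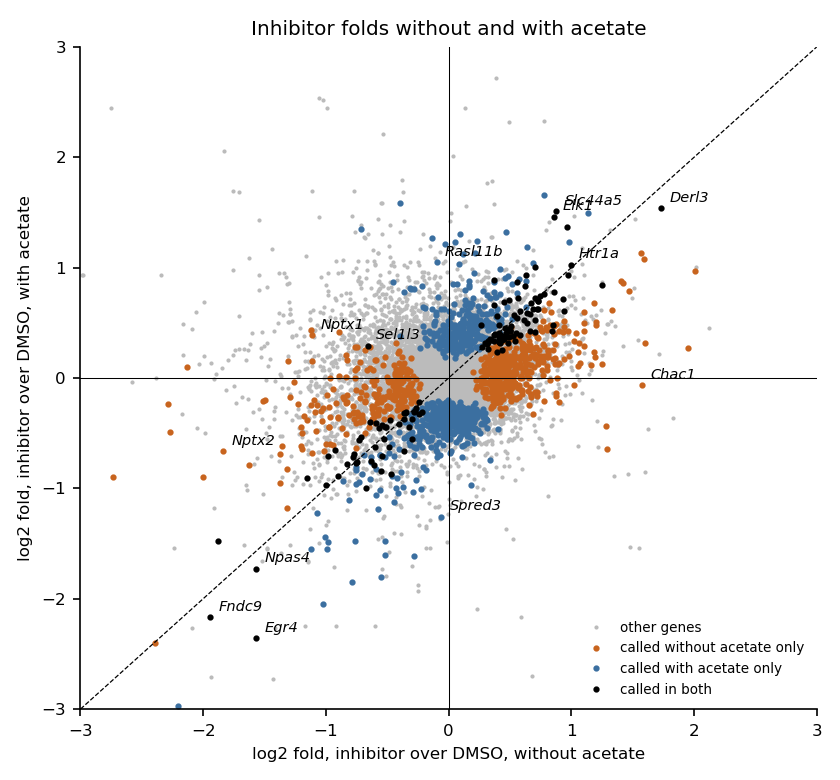
Log2 fold of inhibitor over DMSO without acetate (horizontal axis) and with acetate (vertical axis) for each tested gene, the dashed line marking equal folds; orange points were called without acetate only, blue with acetate only and black in both, and 12 genes lie outside the plotted range of 3 in either direction. Fndc9, Npas4 and Derl3 lie near the dashed line, and Spred3 and Rasl11b lie near 0 on the horizontal axis.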

How the data were processed

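RNA of cultured mouse hippocampal neurons was sequenced from 15 strand-specific libraries (NEBNext Ultra II Directional, RNeasy), per the labels. The table of raw counts, as deposited, holds whole numbers of reads per gene symbol and library made by the authors; per the submitters' processing notes the tools were STAR 2.5.2a, HTSeq 0.6.1p1 and DESeq2 and the build mm10. Annotation and counting by strand were not given in the sources used here; counts of overlapping and near-identical genes are therefore uncertain. Rows that name no gene took 38.9% to 47.4% of the 7 libraries and were left out. Gene counts per library were 19688231 to 39234799.

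Counts were tested in R 4.3.3 with edgeR 4.0.16 (quasi-likelihood test, TMM scaling, default expression filter, Benjamini-Hochberg adjustment, threshold 0.05) in a single fit of all 15 libraries with a mean per group; the SE was taken as fold over the root of the F statistic. Fold changes are log2 values. Levels are CPM on TMM-scaled library sizes; for log2 CPM the prior count was 2. Alternatives used DESeq2 1.42.0 and limma 3.58.1, other scaling and filters, and left-out libraries; those on the 5 and 7 libraries alone, except the edgeR fit of the 7, were added after seeing the data. The edgeR steps were tested on simulated data. Within a group no 2 libraries were copies (chi-square per gene 4.65 to 144). Nothing states that replicates were separate cultures, so the spread between samples may be technical. The p-values of the single fit use the spread shared by all 15 libraries, not that of the 7 compared libraries alone. Replicate numbers shared between groups are not said to mark a batch and were not used for pairing.

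The 43 gene lists and the comparison were chosen with earlier results of these data known. Lists are described by counts and medians only. Genes named are Acss2, Acss1 and Acly; the 12 highest and 12 lowest folds among called genes whose groups did not overlap and whose average log2 CPM reached 2, leaving out genes named by a number, ribosomal protein and mitochondrially encoded genes; the 10 smallest p; and, per list, the 4 members lowest in p. Others are said to be chosen after their values were seen, and members of the lists named to describe a list (such as Fos, Arc, Bdnf, Grin1, Asns, Psat1, Phgdh, Cdk1, Il1b and Gpr17) were also chosen then. Mitochondrially encoded genes were in no row used here, and erythroid markers had 0 tested members. Coordinates are those of GENCODE M21 on mm10, and promoters those of RefSeq on GRCm38.p6. The result of 1 gene list is not reported here.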

Additional observations from a re-analysis of the deposited data

Results flagged for a closer look

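Of 130 values tested in the 4 DMSO vehicle libraries for a single library far from the rest, 19 had one. For a single value chance alone flags about 1 in 20. The values come from the same 4 libraries, and list means hold some of the genes tested singly. They are not independent, so that rate is no benchmark for their total. In 17 of the 19 the library was DMSO vehicle 1. It was high in CPM for Acly (244, others 117 to 128), Acss2 (35.7, others 21.5 to 23.0), Aurkb (24.5), Kcna1 (120), Kif20a (38.5), Lipg (16.0), Mcm2 (40.4), Scn3b (97.8) and Thsd4 (9.48, others 4.46 to 4.87). In mean log2 CPM it was high for the citric acid cycle (7.31), the postsynaptic density (6.89), ion channels (5.2), the cell cycle (5.40) and pan-neuronal markers (8.13). The same library was low for autophagy and lysosome genes (6.87), neurotrophic factors (4.14) and microglia markers (2.67, others 5.03 to 5.11). DMSO vehicle 2 was high for Rora (12.5 CPM, others 10.6 to 10.9), and DMSO vehicle 3 low for p53 targets (5.10, others 5.25 to 5.27).

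The effect of the inhibitor differed between cultures without and with acetate for Rasl11b (difference of -1.15), Sel1l3 (-0.955) and Spred3 (1.19), by the test of the difference itself.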

How the results depend on the processing

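For the inhibitor without acetate (523 raised and 300 lowered), other settings gave 971 and 700 with DESeq2, 0 and 0 with the 7 libraries alone, 249 and 170 with DESeq2 on these 7, 1 and 2 with voom quality weights, 1216 and 1066 with the marker score of non-neuronal cells as covariate, 52 and 39 scaled on neuronal markers, 268 raised with 5 libraries alone and 232 raised with the 7 and the score; leaving out 1 library gave 134 to 1000 and 60 to 630. With acetate (356 and 515) they were 591 and 880 with DESeq2, 1201 and 1487 with the 8 libraries alone, 1050 and 1637 without DMSO vehicle 1 and inhibitor vehicle 2, 863 and 1393 with the score, 179 and 30 scaled on neuronal markers, and 97 to 598 and 90 to 883 without 1 library. For the difference (1 and 2) they were 752 and 266 with DESeq2, 417 and 237 without the 2 libraries, 592 and 274 with the score, 0 raised scaled on neuronal markers, and 0 to 745 and 2 to 260 without 1 library. The replicate block, the paired fit by replicate number, gave 321 and 203 without acetate and 234 and 282 with acetate. Deviations from group means in same-numbered libraries correlated at -0.65, -0.47 and 0.38, and DMSO vehicle 1 correlated best with inhibitor vehicle 2 (0.74). A library that stands apart gives the rest of its group deviations of the opposite sign. These correlations therefore cannot show whether equal numbers mark paired samples. Acss1 changed sign, at 0.0669 without the 2 libraries, 0.0182 with the score, 0.062 with 5 libraries alone, 0.0103 with the 7 and the score, 0.0704 with voom, and -0.104 to 0.0457 without 1 library, and was called in none. Fitting the 7 or 5 libraries alone leaves fewer samples, and the cause of the shifts, in these fits as in the others, was not tested. All other called genes that were followed kept their direction in the 29 alternatives. Scaling on neuronal markers cannot show a change shared with those markers.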

Other observations

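Calls among neuropeptide precursors and antioxidant genes depended on the libraries that entered, in sets described after the values were seen. Of 19 tested precursors 0 were called with all libraries, 3 fell without DMSO vehicle 1 alone, 2 fell and 1 rose without inhibitor vehicle 3, and 5 fell without both libraries that stood apart: Tac1, the substance P precursor (-1.26, SE 0.21, edgeR's quasi-likelihood adjusted p = 0.0029), Penk (-0.87, SE 0.19), Pdyn (-0.66, SE 0.15), Scg2 (-0.60, SE 0.12) and Pnoc (-0.54, SE 0.13). Of 25 Nrf2 targets, 2 fell (Gsr and Txnrd1) and 0 rose with all libraries, while without the pair 0 fell, with Gsr at -0.31 and Txnrd1 at -0.22, and 4 rose, among them Osgin1 (0.96, SE 0.21) and Hmox1, which breaks down heme (0.36, SE 0.08). Circadian clock genes had a median of 0.25, with 2 of 19 raised: Nr1d1 from 45.7 ± 4.7 CPM (SD, n = 4) to 63.3 ± 8.9 CPM (n = 3) and Rora from 11.2 ± 0.9 to 18.6 ± 5.9 CPM. The raised count was 0 without DMSO vehicle 2 and 3 without the pair, where Rora had 0.41 (adjusted p = 0.115). Heat shock genes had 2 of 20 lowered, Hspa4 by 0.34 (SE 0.08) and Hsph1 by 0.37 (SE 0.10), and autophagy genes 2 of 25 raised, Map1lc3b by 0.30 (SE 0.06) and Gabarap by 0.35 (SE 0.10). Without the pair these 4 had adjusted p-values of 0.0565, 0.0791, 0.0543 and 0.101. Aryl hydrocarbon receptor targets, which foreign compounds can induce, had 0 of 9 called and a median of -0.21. Fuel metabolism and growth signaling were also counted. Of 20 genes of mitochondrial fatty acid oxidation 1 rose, Cpt1c, a brain carnitine palmitoyltransferase relative (0.40, called in 6 alternatives), and of 20 hypoxia response genes 1 rose, Ndrg1 (0.45, called in 22). Of 14 neurotrophic factor and receptor genes, Igf1r rose (0.38, called in 13) and Ngfr fell. Without the pair Cpt1c and Igf1r had adjusted p-values of 0.0585 and 0.0831. Glycolysis (21 genes), the citric acid cycle (20) and feedback on Ras-MAPK signaling (20) had 0 called, with medians of -0.0043, -0.075 and -0.21, the last at -0.022 without DMSO vehicle 1. Markers of vessel cells (11), meninges and fibroblasts (12) and ependyma and choroid plexus (9) also had 0 called, with medians of -0.33, -0.062 and -0.19.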
